A study of Mus musculus with 36 samples.

Results

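Oxidative phosphorylation genes were read in cultured mouse lung pericyte-like cells. They were chosen by name: protein-coding genes whose symbol begins with Nduf, Uqcr, Cox4 to Cox8, Atp5 or mt-, together with Sdha to Sdhd and without the Ndufaf assembly factors. This rule was met by 98 of 48795 gene identifiers in the files, 85 encoded in the nucleus and 13 encoded by mitochondrial DNA (the mt- genes). The nuclear genes comprised 36 named for complex I, 4 for complex II, 8 for complex III, 20 for complex IV (Ndufa4 and Ndufa4l2 among them) and 17 for complex V. The mt- genes comprised 7 of complex I, 1 of complex III, 3 of complex IV and 2 of complex V.

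The cells were grown from digested mouse lung, depleted of cells carrying CD31, CD45 or CD326 and then selected for PDGFRβ, a receptor that marks pericytes and other mesenchymal cells. Each culture received a reduced-serum medium mixed with an equal volume of phosphate-buffered saline (called media here), of bronchoalveolar lavage fluid (BALF, the fluid that rinses the airspaces) from uninjured mice, or of BALF from injured mice, for 6 or 24 h. The labels give neither the kind of injury nor the strain or age of the mice. The 36 libraries form 12 groups of 3 by treatment, time and sex of the cells, so each of the 6 treatment-by-time groups held 3 female and 3 male libraries. Whether libraries of 1 group are separate animals or cultures is not stated, and p-values then measure only the spread between these libraries, which may be technical.

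Oxidative phosphorylation is carried out by 5 complexes of the inner mitochondrial membrane. Complexes I and II pass electrons from NADH and succinate to ubiquinone, complex III passes them on to cytochrome c, and complex IV reduces oxygen with them. Complexes I, III and IV pump protons, and complex V, the ATP synthase, uses the proton gradient to make ATP. Most subunits are encoded in the nucleus and imported. The mt- genes encode core subunits of complexes I, III, IV and V, none of complex II, and are transcribed inside the organelle as long RNAs that are then cut into single messages. A few complex IV subunits have alternative isoforms: Cox6a2 and Cox7a1 are typical of heart and skeletal muscle, Cox6b2 and Cox8c of testis, Cox4i2 is prominent in lung and in pericytes, and Ndufa4l2, a relative of Ndufa4, is known as a hypoxia-responsive gene.

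Library totals ran from 17134840 to 35991683 counts. Pdgfrb was present in every library, the summed level of 8 pericyte markers was 580.6 to 2531.7 counts per 1000000 counts (CPM), and 6 lung fibroblast markers summed to 9668 to 22709 CPM, so the PDGFRβ-selected cells carried markers of both types. The cells had been depleted for CD31 and CD45, and 5 endothelial markers summed to 5.79 to 92.0 CPM and 5 macrophage markers to 13.04 to 77.7 CPM. Epithelial markers summed to at most 0.482 CPM, and neutrophil markers to 0.348 to 8.98 CPM. A change in a bulk library cannot be told apart from a change in the mix of cells: fewer cells of a type and less RNA per cell read alike. In 10 of 12 groups the libraries numbered 1 and 2 were the closest pair (median SD of 0.195 on the log2(CPM + 0.5) scale over tested genes, against 0.344 between numbers 1 and 3). The exceptions were female media and female uninjured BALF at 24 h. With numbers 1 and 2 summed to 1 library, 12 of the 20 calls given below were kept and 8 were lost.

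Female media 24 h replicate 1 stood apart from the rest. Its nuclear genes summed to 4733 CPM against 6689 to 7365 CPM in the other 5 media libraries at 24 h, and its mt- genes to 43528 CPM against 12584 to 16657 CPM. It was the lowest of the 6 for 64 of 82 nuclear genes tested and the highest for 2, and no such count was made over all genes. Over all genes tested it also lay far from female media 24 h numbers 2 and 3. The SDs were 0.482 and 0.528, against 0.360 between numbers 2 and 3. Some results that use media at 24 h are given with and without it.

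The nuclear sum differed little between groups. Its lowest, median and highest CPM over 6 libraries were 6388, 6612 and 7033 in media at 6 h. In uninjured BALF at 6 h they were 6197, 6513 and 7560. In injured BALF at 6 h they were 6356, 6481 and 6927. The ranges of the 3 treatments overlapped throughout. At 24 h the values were 4733, 6837 and 7365 in media. They were 6626, 6860 and 7217 in uninjured BALF. They were 6525, 6725 and 7390 in injured BALF. Apart from the 1 low media library, every 24 h library lay within the range spanned at 6 h.

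**Figure D1:**
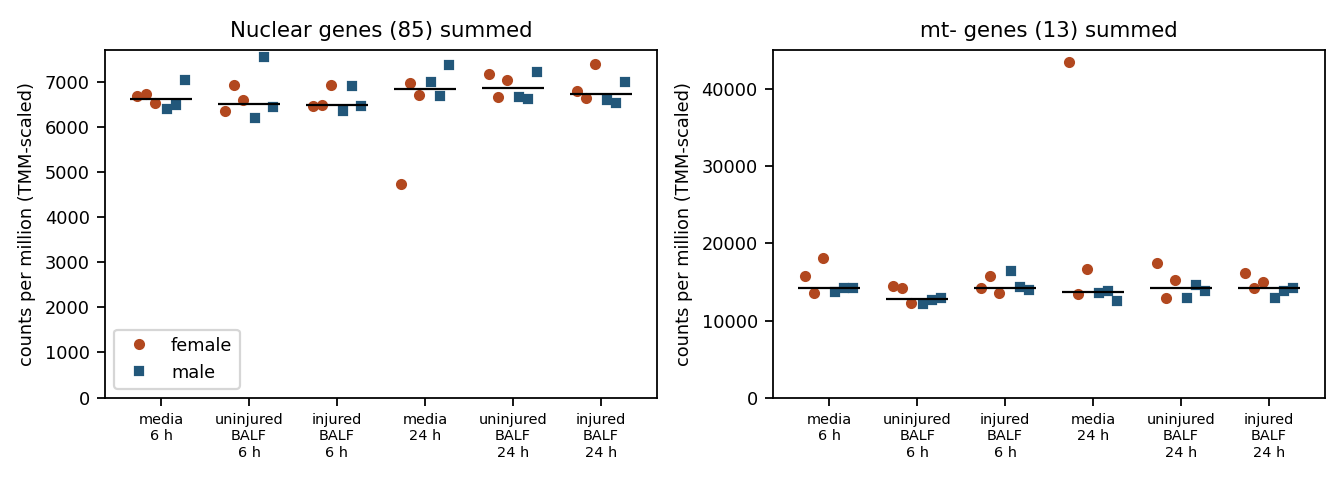
Summed level of the nuclear (85) and of the mt- (13) oxidative phosphorylation genes in each library, in CPM, by treatment and time, with circles for female and squares for male libraries and bars at the medians. The nuclear sums lie between 4733 and 7560 CPM and the mt- sums between 12137 and 43528 CPM, and the lowest nuclear and the highest mt- point are the same library, female media 24 h replicate 1.

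Levels between genes are compared as CPM per kilobase of annotated exon, over the median of 36 libraries. Among nuclear genes Atp5b, the catalytic beta subunit of the ATP synthase, was highest at 258 CPM per kb. Cox6a1 followed at 210, Cox8a at 193, Cox6b1 at 177, Atp5a1, the alpha subunit of the ATP synthase, at 162, and Cox4i1 at 135 CPM per kb. The muscle isoforms lay far below their partners, as for Cox7a1 at 0.721 CPM per kb, and Cox4i2 stood at 1.55 CPM per kb. Exon lengths are those of all annotated transcripts joined, so these levels are approximate. Of the nuclear genes, 82 of 85 passed the low-count filter, and the others were Cox7b2 with 2 counts in all libraries together, Cox8b with 0 and Cox8c with 0.

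Promoter sequences are shown for 4 members because the nuclear genes are a classic set of targets of the factors NRF1, GABPA (an ETS factor) and YY1. RefSeq windows of GRCm38.p6, from 250 bases before to 50 after the start, matched 69 of 85 nuclear genes. The NRF1 motif (GCGCA, any base, GCGC), searched on both strands, occurred in 24.6% of these genes against 5.19% of 27025 genes in the table. The ETS motif CCGGAAG occurred in 23.2% against 9.93%, and the YY1 motif AAGATGGCG in 10.1% against 1.64%. A match describes the letters of the window and is not a measured binding site. The sequences below run 5′ to 3′ up to the annotated gene start, with the NRF1 motif in capitals. Sdha and Ndufv3 are shown because both were called with time in both BALF treatments, and Cox6a1 and Cox6b2 as an abundant and a scarce subunit isoform. The Sdha stretch is chr13:74350281-74350490 on the minus strand, Ndufv3 is chr17:31519865-31520114 on the plus strand, Cox6a1 is chr5:115348982-115349208 on the minus strand and Cox6b2 is chr7:4753095-4753344 on the minus strand.
Sdha: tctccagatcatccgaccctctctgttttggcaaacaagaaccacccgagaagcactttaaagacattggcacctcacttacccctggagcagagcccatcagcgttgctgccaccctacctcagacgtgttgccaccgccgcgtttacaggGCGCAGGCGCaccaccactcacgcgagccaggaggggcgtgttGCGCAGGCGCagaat
Ndufv3: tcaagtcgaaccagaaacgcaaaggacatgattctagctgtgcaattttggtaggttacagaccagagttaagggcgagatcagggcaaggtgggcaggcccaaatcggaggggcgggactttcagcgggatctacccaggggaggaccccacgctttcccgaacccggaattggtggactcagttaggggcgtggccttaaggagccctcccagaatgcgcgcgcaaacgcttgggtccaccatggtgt
Cox6a1: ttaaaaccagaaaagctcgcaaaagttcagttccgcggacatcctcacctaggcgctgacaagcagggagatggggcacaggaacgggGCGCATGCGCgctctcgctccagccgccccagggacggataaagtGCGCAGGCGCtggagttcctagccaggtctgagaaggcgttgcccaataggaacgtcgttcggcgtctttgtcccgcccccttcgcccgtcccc
Cox6b2: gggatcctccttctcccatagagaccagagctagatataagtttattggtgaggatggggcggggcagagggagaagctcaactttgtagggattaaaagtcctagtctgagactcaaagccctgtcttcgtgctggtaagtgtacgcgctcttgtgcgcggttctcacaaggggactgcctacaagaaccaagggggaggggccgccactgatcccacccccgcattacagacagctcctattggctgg
The stretches of Sdha and Cox6a1 each hold 2 NRF1 motifs, and those of Ndufv3 and Cox6b2 hold 0.

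The first comparison asked whether BALF from injured lungs changed these genes beyond BALF from uninjured lungs. Of the nuclear genes, 0 of 82 were called at 6 h and 0 of 82 at 24 h, which does not show that none changed. Genes were called at a Benjamini-Hochberg adjusted p under 0.05 in edgeR's quasi-likelihood test across 15901 genes, with the female and male effects averaged. At 6 h 3.40% of all genes tested were called (1.96% higher and 1.45% lower in injured BALF) and at 24 h 4.43% (2.39% higher and 2.04% lower). At an unadjusted p under 0.05 the test had 1 nuclear gene at each time. The median log2 fold change of the nuclear genes was 0.01 at 6 h and -0.02 at 24 h, and the 95% interval lay within 1.5-fold of no change for 77 of 82 genes at each time. Atp5b shows how narrow the intervals of abundant members were. In uninjured BALF at 24 h its lowest, median and highest levels were 999.2, 1125 and 1176 CPM, and in injured BALF 1046, 1083 and 1152 CPM. These ranges overlapped almost wholly, and the log2 difference was -0.03 ± 0.07 (SE). Cox4i1, the common partner isoform of Cox4i2 in complex IV, stood at 207.2, 220.7 and 223.9 CPM in uninjured BALF and 202.6, 207.5 and 220.1 CPM in injured BALF at 24 h. Its log2 difference was -0.05 ± 0.11. The test of whether the injured-against-uninjured effect differed between 24 and 6 h called 0 of 82 nuclear genes, beside 0.233% of all genes (0.145% higher and 0.0880% lower), and 0 nuclear genes had an unadjusted p under 0.05 in it.

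Against media, few nuclear genes were called, while the share of all genes called ran from 0.868 to 25.2%. Uninjured BALF at 6 h raised 1 and lowered 1 of 82 nuclear genes, or 2.44%, beside 18.4% of all genes (10.5% higher and 7.81% lower). Injured BALF at 6 h raised 0 and lowered 3, or 3.66%, beside 25.2% (13.8% higher and 11.4% lower). At 24 h uninjured BALF raised 0 and lowered 0, beside 0.868% (0.516% higher and 0.352% lower), with 5 nuclear genes at an unadjusted p under 0.05 in edgeR's test. At 24 h injured BALF raised 2 and lowered 4, or 7.32%, beside 23.6% (11.5% higher and 12.1% lower). The nuclear medians of these 4 comparisons lay between -0.01 and 0.06 on the log2 scale. Those at 24 h include female media 24 h replicate 1, the lowest of its group for 64 of 82 nuclear genes, and are not given without it. Whether the uninjured-against-media effect differed between 24 and 6 h was tested too, with 0 of 82 nuclear genes called beside 1.98% of all genes (0.704% higher and 1.28% lower) and 1 at an unadjusted p under 0.05.

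**Figure D2:**
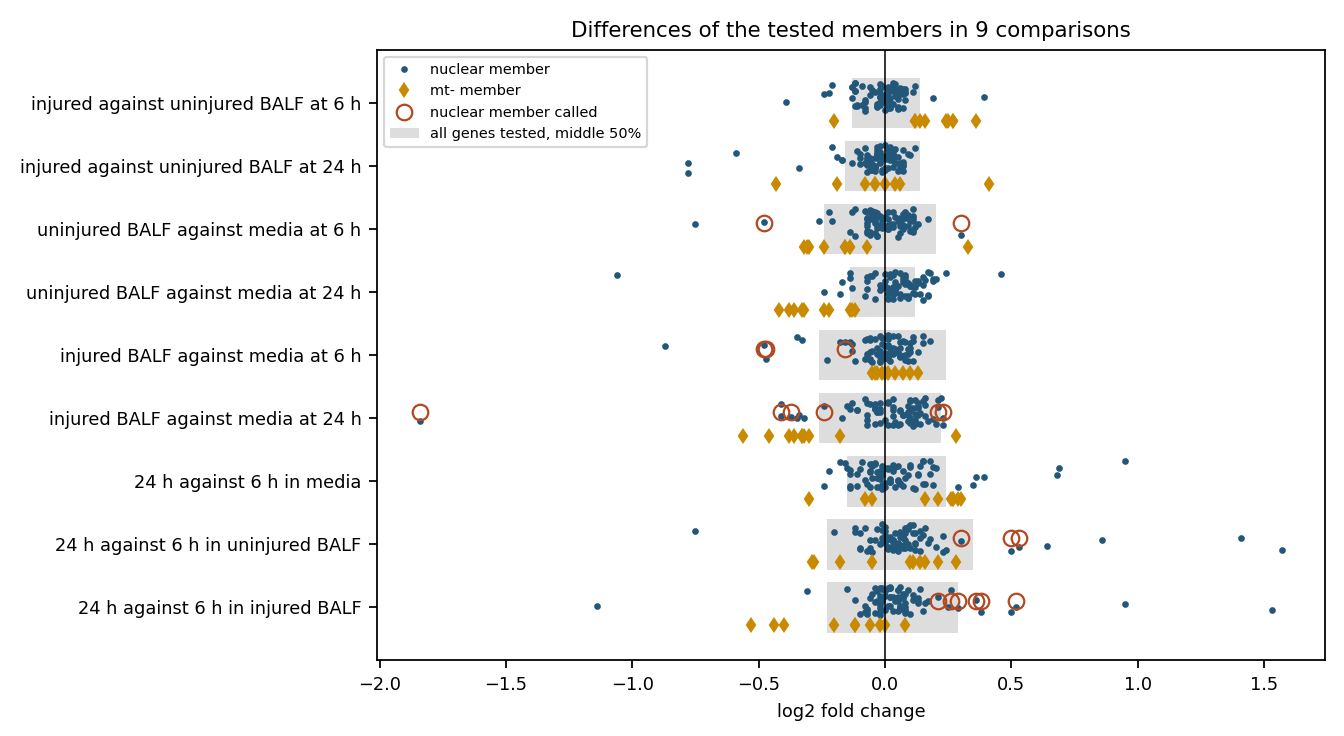
Log2 fold changes of the nuclear (82, points) and mt- (10, diamonds) genes tested in each of the 9 pairwise comparisons, with open circles around called genes and grey bars over the middle 50% of all genes tested. The nuclear medians lie between -0.02 and 0.06 and 20 of 738 nuclear gene tests were called, while no mt- gene was called.

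At 6 h the members lowered by BALF were Atp5s, Ndufv3 and Sdha. Atp5s, also called distal membrane arm assembly component 2-like, is named for the coupling factor B of the ATP synthase. Its lowest, median and highest levels were 4.04, 5.66 and 6.11 CPM in media, 3.45, 3.87 and 4.39 CPM in uninjured BALF and 3.34, 3.90 and 4.40 CPM in injured BALF. The lowest media library overlapped the BALF libraries and the other 5 lay above them all. Atp5s fell by 0.48 ± 0.12 on the log2 scale in uninjured BALF (edgeR adjusted p = 0.0044) and by 0.47 ± 0.12 in injured BALF (edgeR adjusted p = 0.0034); both comparisons use the same media libraries. Ndufv3, a small subunit of the NADH-oxidising module of complex I, stood at 37.8, 40.2 and 50.3 CPM in media, 30.9, 34.2 and 42.5 CPM in uninjured BALF and 24.1, 29.7 and 34.6 CPM in injured BALF. The 6 injured BALF libraries all lay below the 6 media libraries, and the fall was 0.48 ± 0.14 on the log2 scale (edgeR adjusted p = 0.01). In uninjured BALF the Ndufv3 difference was -0.26 ± 0.14 and was not called. Sdha, the flavoprotein subunit of complex II that oxidises succinate, stood at 184.1, 190.8 and 213.1 CPM in media and 167.3, 172.1 and 180.6 CPM in injured BALF. Its groups did not overlap, but the fall was only 0.16 ± 0.06 on the log2 scale (edgeR adjusted p = 0.042) and lost its call in 18 of 26 alternative settings. Atp5d, the delta subunit of the ATP synthase, was the member raised: it stood at 120.7, 154.1 and 166.4 CPM in media and 158.7, 187.8 and 212.8 CPM in uninjured BALF, and rose by 0.30 ± 0.08 on the log2 scale (edgeR adjusted p = 0.0096). The groups overlapped, and without libraries numbered 1, without those numbered 2, or with the 2 summed the call was lost. Cbarp, a gene on the opposite strand that overlaps Atp5d, rose in the same comparison by 0.67 ± 0.18 on the log2 scale (edgeR adjusted p = 0.0091). Whether reads were counted by strand was not stated, and the part of Cbarp reads in the Atp5d result was not tested.

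At 24 h in injured BALF against media the steadiest member was Ndufb10, an accessory subunit of the membrane arm of complex I. Its lowest, median and highest levels were 47.1, 48.2 and 58.4 CPM in media, 42.2, 45.1 and 48.3 CPM in uninjured BALF and 36.5, 40.2 and 41.6 CPM in injured BALF. The 6 injured BALF libraries lay below all 6 media and all 6 uninjured BALF libraries, though the difference from uninjured BALF was not called. Ndufb10 fell by 0.37 ± 0.07 on the log2 scale against media (edgeR adjusted p = 0.00057), a call kept in 25 of 26 alternative settings. The other members lowered were Atp5s (-0.41 ± 0.12, edgeR adjusted p = 0.011), Cox7a2l, which joins complexes III and IV in supercomplexes (-0.24 ± 0.08, edgeR adjusted p = 0.023), and the muscle isoform Cox6a2 (-1.84 ± 0.54, edgeR adjusted p = 0.014). The members raised were Ndufa4, a subunit of complex IV despite its name (0.23 ± 0.07, edgeR adjusted p = 0.016), and Atp5g3, which encodes the membrane ring subunit c of the ATP synthase (0.21 ± 0.07, edgeR adjusted p = 0.036). With libraries 1 and 2 summed, Ndufb10 and Ndufa4 kept their calls and the other 4 lost theirs. With no expression filter, or with only the compared groups fitted, Ndufb10 and Cox6a2 kept theirs and the other 4 did not. Some calls rested on single media libraries. Cox6a2 stood at 7.52 CPM in female media replicate 3 and between 0.642 and 1.39 CPM in the other 5 media libraries, against 0.132 to 0.916 CPM in injured BALF, and its call was lost without that 1 library. Atp5g3 and Cox7a2l lost their calls without female media replicate 1, the library with the low nuclear sum, and without several other libraries. Atp5s lost its call without male media replicate 3. Without female media replicate 2 the count was 10 of 82. In the same comparison 5 of 7 pericyte markers tested fell and 0 rose (71.4% lower, beside 12.1% of all genes). Their median log2 fold change was -1.01, and their summed level was 580.6 to 981.0 CPM against 1328 to 2532 CPM. In media at 24 h the median was 746.9 CPM for Pdgfrb and 447.0 CPM for Cd248, beside 1559 CPM for the sum of 8. Of 3 neutrophil markers tested 3 rose, beside 11.5% of all genes, at low levels (median 2.66, summed level 5.35 to 8.98 CPM against 0.348 to 1.89 CPM). Of 6 lung fibroblast markers 1 rose and 1 fell (33.3%, beside 23.6% of all genes). Marker shifts were not confined to this comparison. Against media at 6 h, injured BALF lowered 4 and raised 0 of 7 pericyte markers (57.1% lower, beside 11.4%). Against uninjured BALF at 24 h it lowered 2 and raised 0 of the 7 (28.6% lower, beside 2.04%) and raised 2 of 3 neutrophil markers (66.7%, beside 2.39%). The part of these shifts in the member results was not tested.

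With time, 0 of 82 nuclear genes were called between 6 and 24 h in media, beside 6.82% of all genes (3.50% higher and 3.33% lower at 24 h). At an unadjusted p under 0.05 edgeR's test had 8 nuclear genes. Without female media 24 h replicate 1, 4 rose, Ndufv3 among them. In uninjured BALF 3 rose and 0 fell, or 3.66%, beside 30.6% of all genes (15.1% higher and 15.5% lower). In injured BALF 6 rose and 0 fell, or 7.32%, beside 26.9% (12.7% higher and 14.2% lower). Sdha, Ndufv3 and Atp5s were called in both BALF treatments. Sdha rose from a lowest, median and highest level of 168.4, 176.4 and 185.7 CPM at 6 h to 207.6, 213.0 and 232.0 CPM at 24 h in uninjured BALF, by 0.30 ± 0.06 on the log2 scale (edgeR adjusted p = 0.00024). In injured BALF it rose from the 6 h values above to 200.2, 206.8 and 214.5 CPM, by 0.26 ± 0.06 (edgeR adjusted p = 0.0012). In each BALF treatment all 6 libraries at 24 h lay above all 6 at 6 h, and both calls were kept in 26 of 26 alternative settings. In media Sdha was already at 190.8 CPM at 6 h and stood at 206.7 CPM at 24 h, a log2 difference of 0.07 ± 0.06 that was not called. Female media 24 h replicate 1 was at 167.5 CPM and the other 5 at 200.9 to 225.0 CPM, and without it the difference was 0.12 ± 0.05 and was not called either (edgeR adjusted p = 0.1). Whether the effect of uninjured BALF on Sdha differed between times was tested and was not called (0.23 ± 0.08, edgeR adjusted p = 0.15).

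Ndufv3 rose in uninjured BALF from the 6 h values above to 38.8, 45.9 and 69.5 CPM at 24 h, by 0.50 ± 0.14 on the log2 scale (edgeR adjusted p = 0.0057). In injured BALF it rose to 31.7, 41.0 and 61.4 CPM, by 0.52 ± 0.14 (edgeR adjusted p = 0.0052). In media it stood at 46.0, 53.2 and 66.2 CPM at 24 h, and the log2 difference of 0.39 ± 0.14 was not called (edgeR adjusted p = 0.076). Without female media 24 h replicate 1 it was called, at 0.43 ± 0.14 (edgeR adjusted p = 0.045). The ranges at 6 and 24 h overlapped in both BALF treatments. Atp5s rose to 5.29, 5.55 and 6.23 CPM in uninjured BALF at 24 h, above all 6 libraries at 6 h, by 0.53 ± 0.12 (edgeR adjusted p = 0.00097). In injured BALF it rose to 4.18, 5.00 and 5.55 CPM, by 0.36 ± 0.12 (edgeR adjusted p = 0.025). These 3 genes are those that fell in injured BALF against media at 6 h. The comparisons share the 6 h BALF libraries, so the fall and the later rise are not separate evidence.

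Other members raised with time in injured BALF included complex I subunits. Ndufa6 stood at 23.8, 25.5 and 32.7 CPM at 6 h and 25.5, 32.6 and 55.0 CPM at 24 h, overlapping, and rose by 0.38 ± 0.13 (edgeR adjusted p = 0.03). Ndufc2, a membrane arm subunit named here after its values were seen, rose by 0.21 ± 0.07 (edgeR adjusted p = 0.025). Without female injured BALF replicate 3 at 24 h the calls of Ndufa6 and Ndufc2 were lost. By complex, the median log2 fold change with time in injured BALF was 0.06 for complex I, 0.05 for complex II, -0.01 for complex III, 0.01 for complex IV and 0.02 for complex V.

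**Figure D3:**
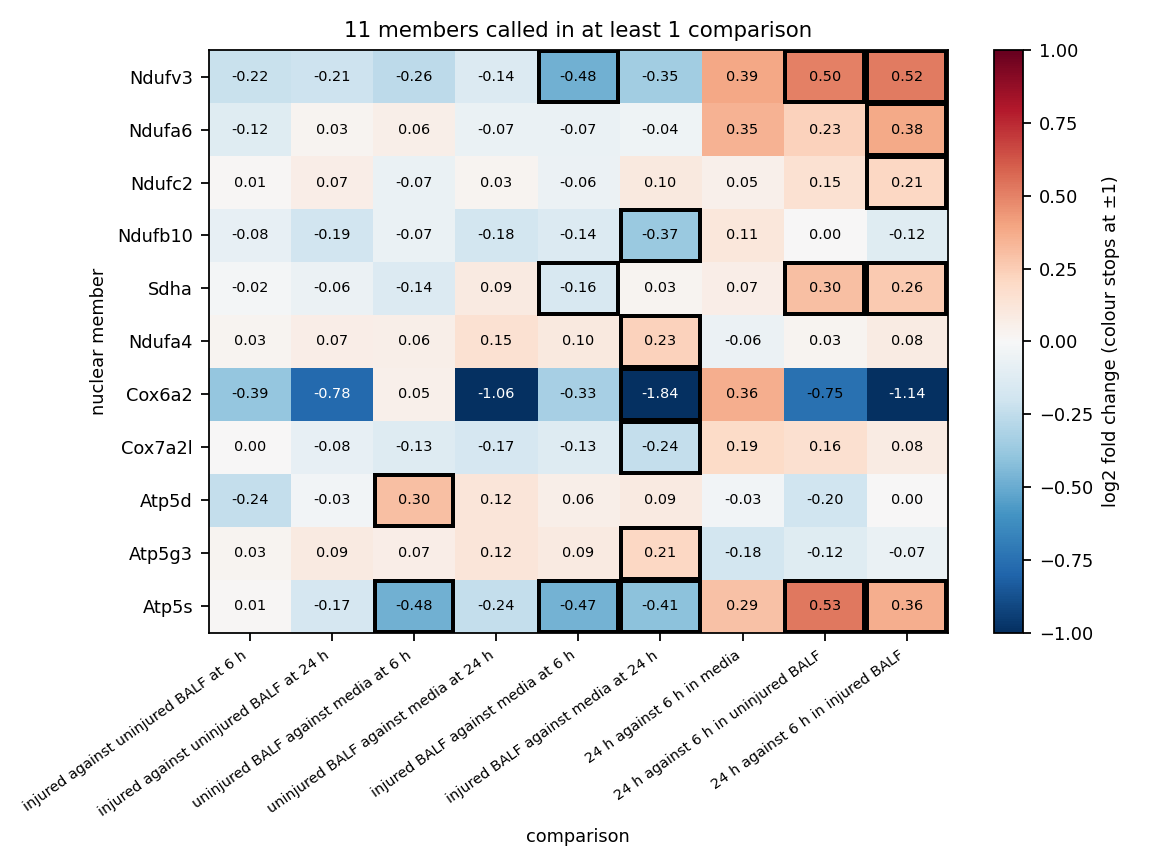
Log2 fold change of 11 nuclear members called at least once (rows) in each of the 9 pairwise comparisons (columns), as printed in each cell and as colour, which stops at 1 in either direction; black frames mark their 19 calls. The columns of injured against uninjured BALF hold no frame, and Sdha, Ndufv3 and Atp5s are framed with time in both BALF treatments.

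Over the 9 pairwise comparisons, 12 of 82 nuclear genes (14.6%) were called at least once, against 8697 of 15901 genes (54.7%). The members were also less variable. The median SD of log2 CPM over 36 libraries was 0.176 for nuclear members and 0.289 for all genes tested, and within groups 0.175 and 0.242. These values describe abundant genes beside all genes and carry no test.

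The widest differences among members were between libraries of 1 group, in the subunit isoforms. Ndufa4l2 stood at 74.2 CPM in female media 24 h replicate 3, 89.3 CPM in female uninjured BALF 24 h replicate 1 and 49.8 CPM in female injured BALF 24 h replicate 3. It stood at 1.51 to 11.5 CPM in the other 33 libraries. Per kilobase, Ndufa4l2 made up as much as 53.6% of Ndufa4l2 plus Ndufa4 in media and in uninjured BALF and 37.0% in injured BALF, against medians of 10.3, 9.77 and 8.09% in those groups. Cox4i2 stood at 5.02 to 7.71 CPM in the same 3 libraries and at 0.0581 to 2.57 CPM in the other 33. Cox6b2 stood at 4.99 to 7.02 CPM in them and at 1.21 to 4.38 CPM in the rest. In 2 of the 3 groups the library is number 3, the number that lay farthest from the others in most groups, and in female uninjured BALF at 24 h, where numbers 2 and 3 were the closest pair, it is number 1.

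Among the other 24 h libraries the same 3 were above all 15 in 10 of 82 nuclear members and below all 15 in 0. The 3 were picked for their high isoform levels, so the isoforms are among the 10 by choice. The same count over all genes tested was not made, so 10 of 82 cannot be read as particular to these members. The 15 include female media 24 h replicate 1, the lowest of all 36 libraries for 56 of the 82, with no such count over all genes. Beside the other 14 the 3 were above all in 10 members and below all in 1, Sdhd, a membrane anchor of complex II, at 63.1, 73.1 and 75.3 CPM against 76.3 to 88.1 CPM. Besides the 3 isoforms the 10 were Ndufa6, Atp5g2, Ndufv3, Ndufb9, Cox6c, Ndufs4 and Ndufb11, chosen for naming after their values were seen. The ratio of medians was 12.7 for Ndufa4l2, 3.95 for Cox4i2, 2.51 for Cox6b2, 1.56 for Ndufa6, 1.55 for Atp5g2, 1.52 for Ndufv3 and 1.44 for Ndufb9. Pdk1 and Higd1a, mitochondrial genes known to respond to hypoxia and named with results of these data known, were high in the same libraries. Pdk1, which inhibits pyruvate dehydrogenase, stood at 109.3 to 145.9 CPM against 26.0 to 71.6 CPM in the other 15 libraries at 24 h. Higd1a, a complex IV regulator, stood at 142.7 to 193.1 CPM against 23.4 to 82.6 CPM in those 15. Cox4i1 did not separate, at 217.2 to 223.9 CPM in the 3 and 202.6 to 224.1 CPM in those 14. Atp5b stood at 912.4, 999.2 and 1046 CPM in the 3 and at 1015 to 1176 CPM in the 14, so 2 of the 3 lay below them all. Each treatment held 1 such library, and Ndufa4l2, Cox4i2 and Cox6b2 were called in none of the 9 pairwise comparisons. With time, Cox4i2 differed by 1.57 ± 0.66 on the log2 scale in uninjured BALF (edgeR adjusted p = 0.073) and by 1.53 ± 0.67 in injured BALF (edgeR adjusted p = 0.094), and Ndufa4l2 by 1.41 ± 0.75 (edgeR adjusted p = 0.16) and 0.95 ± 0.75 (edgeR adjusted p = 0.38). Without these 3 libraries the calls of Ndufa6, Ndufc2, Atp5g3 and Cox6a2 were lost, while those of Sdha, Ndufv3, Atp5s and Ndufb10 were kept. Shmt2, an enzyme of mitochondrial folate metabolism that overlaps Ndufa4l2 on the opposite strand, was high in the same libraries, at 174.4 to 196.6 CPM against 106.4 to 157.0 CPM in the other 33, and reads of the pair may be mixed. What sets these libraries apart was not tested.

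**Figure D4:**
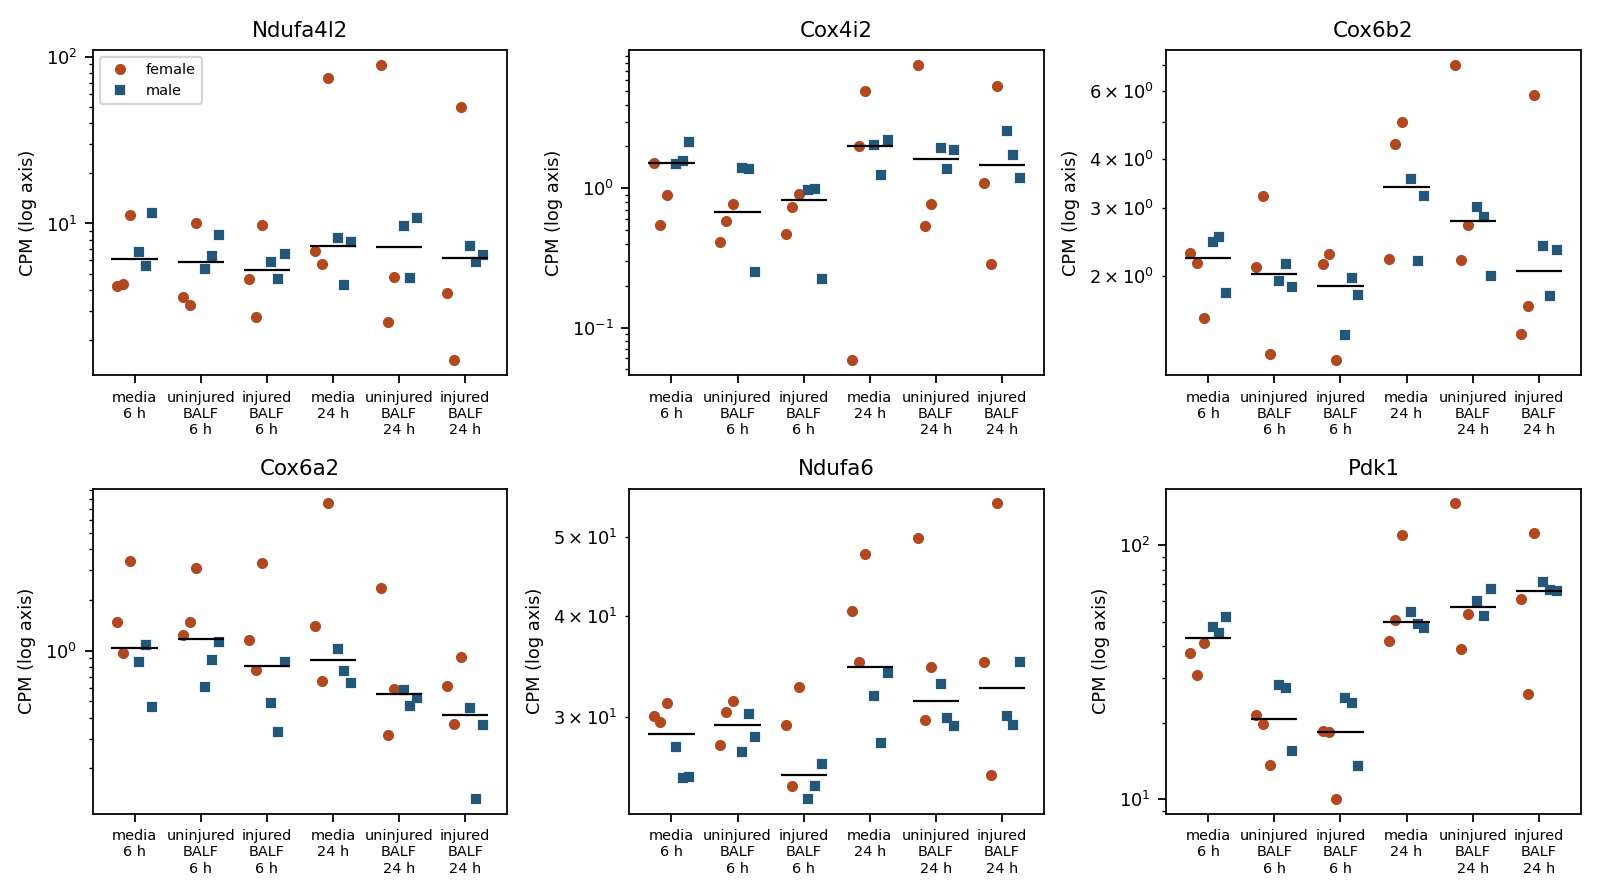
Level in CPM on a log axis of 4 subunit isoforms, Ndufa6 and Pdk1 in each library, by treatment and time, with circles for female and squares for male libraries and bars at the medians. In Ndufa4l2 and Cox4i2 1 female library of each 24 h group stands above the rest, at 49.8 to 89.3 CPM and 5.02 to 7.71 CPM.

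The mt- genes were described apart. Of 13, 10 passed the low-count filter, the others being mt-Nd3 with 75 counts in all libraries together, mt-Nd4l with 50 and mt-Atp8 with 18. In none of the 9 pairwise comparisons or the 2 tests of a difference between times was an mt- gene called, beside the shares of all genes given above. At an unadjusted p under 0.05 edgeR's test had 1 mt- gene in injured BALF against media at 24 h, mt-Co1, and 1 with time in uninjured BALF, mt-Cytb. The mt- genes made up 1.16 to 3.80% of a library's counts, the highest share being that of female media 24 h replicate 1. Their summed level had a lowest, median and highest value of 13581, 14245 and 18159 CPM in media at 6 h. In uninjured BALF at 6 h it was 12137, 12808 and 14519 CPM. In injured BALF at 6 h it was 13605, 14281 and 16409 CPM. These ranges overlapped. At 24 h it was 12584, 13742 and 43528 CPM in media. In uninjured BALF it was 12934, 14199 and 17450 CPM, and in injured BALF 12905, 14210 and 16193 CPM. Without the 1 high library the media range at 24 h ended at 16657 CPM.

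The direction of the mt- genes at 24 h against media turned with that library. The median log2 fold change of the 10 genes tested was -0.33 in injured BALF against media at 24 h and -0.28 in uninjured BALF. Without female media 24 h replicate 1 the medians were 0.08 and 0.12. With time in media the median was 0.24 with it and -0.23 without it. The medians of the other comparisons were 0.20 for injured against uninjured BALF at 6 h, -0.02 at 24 h, -0.16 for uninjured BALF and 0.00 for injured BALF against media at 6 h, and 0.10 and -0.12 with time in uninjured and injured BALF. The tests of mt- genes were less precise than those of nuclear genes, with a median SE of 0.22 against 0.10. mt-Co1, the catalytic core of complex IV and the most abundant member, stood at 5638 to 8914 CPM in 35 libraries and at 19469 CPM in that 1. Its log2 difference between injured and uninjured BALF was 0.12 ± 0.16 at 6 h and -0.04 ± 0.16 at 24 h. mt-Cytb, the cytochrome b of complex III, differed by 0.24 ± 0.13 at 6 h and 0.04 ± 0.13 at 24 h.

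The mt- genes differed widely in level. mt-Co1 stood at 4228 CPM per kb, mt-Cytb at 2236, mt-Nd1 at 1534, mt-Nd5 at 953, mt-Nd2 at 847 and mt-Nd4 at 607. mt-Nd6, a complex I subunit and the only mt- gene on the other strand, stood at 31.8 CPM per kb. Far below lay a low set, mt-Co2 at 0.689 CPM per kb, mt-Co3 at 0.602, mt-Atp6 at 0.227, mt-Nd4l at 0.148, mt-Nd3 at 0.135 and mt-Atp8 at 0. mt-Co1, mt-Co2 and mt-Co3 encode the 3 core subunits of complex IV that work in equal numbers, and their mean counts per library were 180227, 13.7 and 14.7.

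**Figure D5:**
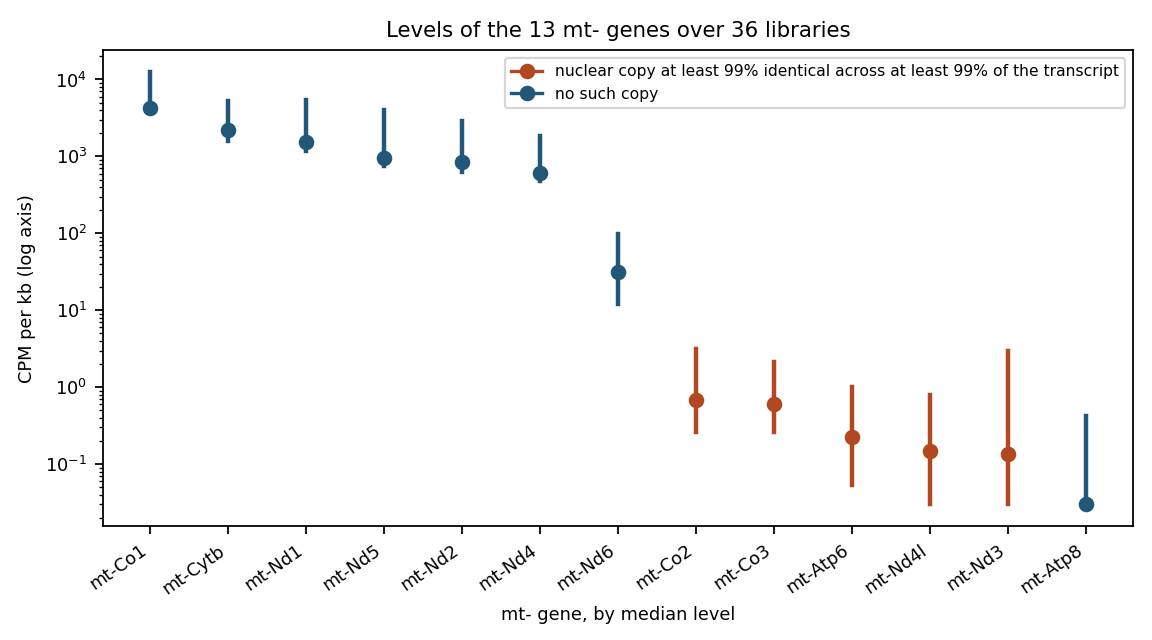
Level of each mt- gene in CPM per kilobase on a log axis, with points at the median and lines from the lowest to the highest of 36 libraries; values of 0 are drawn at the foot of the axis, and colour marks genes with a nuclear copy of at least 99% of the transcript at 99% identity or more. The 5 genes with such a copy lie below 1 CPM per kb at the median, and those at 607 CPM per kb or more have none.

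The low set was compared with the mouse transcripts of GENCODE M21 (GRCm38). For 5 of 13 mt- genes another annotated gene held at least 99% of the transcript at 99% identity or more, and for 0 of 85 nuclear members. These 5 were mt-Co2, mt-Co3, mt-Atp6, mt-Nd3 and mt-Nd4l, all in the low set, and the copies are pseudogenes on chromosome 1. The pseudogene Gm28437 matched mt-Co3 over 783 bases with 0 mismatches and had a mean of 30.6 counts per library against 14.7 for mt-Co3. Gm28661 matched mt-Co2 over 681 bases with 0 mismatches and had 33.6 counts against 13.7. Gm10925 matched mt-Atp6 over 678 bases with 0 mismatches and had 32.6 counts against 5.5. By contrast the closest copy of mt-Co1, Gm13340 on chromosome 2, had 37 mismatches over 1545 bases and a mean of 162.7 counts. mt-Nd4, which is not low, shared 876 of 1378 bases exactly with Gm28439. For mt-Atp8, mt-Cytb, mt-Nd1 and mt-Nd6 no copy was found at 95% over 150 bases, but only annotated transcripts were searched. mt-Atp8 lies beside mt-Co2 and overlaps mt-Atp6, so a copy of it outside annotated transcripts would have been missed. A window of 60 bases from each pair shows the difference, with capitals at the mismatched bases. The windows are chrM:5787-5846 and chr2:22589129-22589188 (minus strand) for mt-Co1, and chrM:8607-8666 and chr1:24613912-24613971 (minus strand) for mt-Co3.
mt-Co1: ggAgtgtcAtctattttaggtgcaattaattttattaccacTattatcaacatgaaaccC
Gm13340: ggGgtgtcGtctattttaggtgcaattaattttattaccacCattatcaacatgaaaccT
mt-Co3: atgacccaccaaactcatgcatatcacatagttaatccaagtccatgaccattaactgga
Gm28437: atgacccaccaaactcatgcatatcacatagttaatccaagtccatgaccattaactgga
The mt-Co1 window differs from its copy at 4 of 60 bases and the mt-Co3 window at 0. A read from such an identical stretch maps to both places, and the levels of the 5 genes with such copies are uncertain. The level of mt-Atp8 is uncertain too. No source says how the counting treated such reads, and its part in the low levels was not tested.

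Lists of genes around the complexes are given beside all genes tested. Of 17 genes for processing and decay of mitochondrial RNA, 6 rose and 0 fell in uninjured BALF against media at 6 h (35.3%, beside 18.4% of all genes) and 12 rose and 0 fell in injured BALF (70.6%, beside 25.2%). With time 1 rose and 9 fell in uninjured BALF (58.8%, beside 30.6%) and 1 rose and 10 fell in injured BALF (64.7%, beside 26.9%). Elac2, which cuts the 3′ ends of mitochondrial tRNAs, rose by 0.56 ± 0.08 in injured BALF against media at 6 h (edgeR adjusted p = 3.8e-06). Fastkd1, a mitochondrial RNA-binding protein, fell by 0.94 ± 0.12 with time in injured BALF (edgeR adjusted p = 9.8e-07). Injured against uninjured BALF raised 2 and lowered 0 of the 17 at 6 h (11.8%, beside 3.40% of all genes). At 24 h 0 rose and 0 fell, beside 4.43% of all genes. The 2 raised at 6 h were Pnpt1, a mitochondrial RNA-degrading phosphorylase, by 0.33 ± 0.07 (edgeR adjusted p = 0.0089), and Supv3l1, the helicase that works with it, by 0.33 ± 0.09 (edgeR adjusted p = 0.03). Of 77 mitochondrial ribosome genes 9 rose and 0 fell in uninjured BALF against media at 6 h (11.7%, beside 18.4% of all genes). In injured BALF against media at 6 h 22 rose and 0 fell (28.6%, near the 25.2% of all genes). With time 2 rose and 23 fell in uninjured BALF (32.5%, beside 30.6%) and 1 rose and 14 fell in injured BALF (19.5%, beside 26.9%). The 6 h and time comparisons share libraries.

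Of 14 complex I assembly factors 1 rose and 1 fell in uninjured BALF against media at 6 h (14.3%, beside 18.4% of all genes). In injured BALF against media at 6 h 2 rose and 2 fell, or 28.6%, near the 25.2% of all genes. Ndufaf4 rose by 0.69 ± 0.14 there (edgeR adjusted p = 0.00042) and fell with time by 0.58 ± 0.14 in media (edgeR adjusted p = 0.013), 0.69 ± 0.14 in uninjured BALF (edgeR adjusted p = 0.00042) and 0.89 ± 0.14 in injured BALF (edgeR adjusted p = 2.4e-05). Of 33 assembly factors of complexes II to V 3 rose and 9 fell with time in injured BALF (36.4%, beside 26.9%), among the latter Sco1, a copper chaperone of complex IV (-0.48 ± 0.09, edgeR adjusted p = 0.00013). With time in uninjured BALF 6 rose and 6 fell (36.4%, beside 30.6%). Of 15 genes of mitochondrial DNA replication and transcription 3 rose and 0 fell in injured BALF against media at 6 h (20.0%, beside 25.2%), including Tfam, which packages and transcribes that DNA (0.43 ± 0.09, edgeR adjusted p = 0.0011). In uninjured BALF at 6 h 4 rose and 0 fell (26.7%, beside 18.4%). Of 9 regulators tested 0 rose and 5 fell with time in uninjured BALF (55.6%, beside 30.6%). In injured BALF 0 rose and 4 fell (44.4%, beside 26.9%), among them Nrf1, whose motif is shown above (-0.29 ± 0.07, edgeR adjusted p = 0.0021), and Gabpb1, the partner of GABPA (-0.52 ± 0.09, edgeR adjusted p = 4.8e-05). With time in injured BALF 6 of 82 nuclear members were called higher and 0 lower (7.32%, beside 26.9% of all genes). A link between these regulators and the members was not tested.

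Of 25 genes of the citric acid cycle and pyruvate dehydrogenase 1 rose and 0 fell in injured against uninjured BALF at 6 h (4.0%, beside 3.40% of all genes), and 1 rose and 1 fell at 24 h (8.0%, beside 4.43%). Pdk4, which inhibits pyruvate dehydrogenase, rose by 0.87 ± 0.22 at 6 h (edgeR adjusted p = 0.018) and by 0.95 ± 0.22 at 24 h (edgeR adjusted p = 0.0087), and Pdha1, a pyruvate dehydrogenase subunit, fell by 0.21 ± 0.06 at 24 h (edgeR adjusted p = 0.034). Of 18 genes of ubiquinone synthesis and electron carriers 5 rose and 1 fell in injured BALF against media at 24 h (33.3%, beside 23.6%). Cycs, the cytochrome c that links complexes III and IV, rose by 0.46 ± 0.12 there (edgeR adjusted p = 0.0045), and Coq8a, needed for ubiquinone synthesis, fell by 1.64 ± 0.39 (edgeR adjusted p = 0.0025). Of 10 genes of the ATP synthase inhibitor, adenine nucleotide exchange and uncoupling 2 rose and 0 fell in the same comparison (20.0%, beside 23.6%).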

How the data were processed

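Polyadenylated RNA was sequenced with a stranded kit, per the labels' protocols. The authors deposited 1 table of whole-number counts per Ensembl gene for 36 libraries. The submitters' processing notes name DESeq2, RSEM 1.2.31 and STAR 2.5.2b without roles, so the deposited counts may be rounded estimates; strand setting and build are not given in the sources used here. Identifiers were matched to GENCODE M21 (GRCm38) for 48435 of 48795 (99.3%), and unmatched ones held at most 0.0108% of a library's counts. edgeR 4.0.16 (R 4.3.3) with TMM scaling (factors 0.874 to 1.092), filterByExpr and robust quasi-likelihood tests was fitted to 12 groups of treatment, sex and time (24 residual df, biological coefficient of variation 22.5%). Levels are TMM-scaled CPM. Adjusted p-values cover all 15901 genes tested, an SE is the log2 fold change over the root of F, and intervals are at 95%. Scripts were tested on simulated data. Nuclear copies were searched at 95% identity over 150 bases. Genes were named if mt-, among the 4 largest called rises or falls with at least 2 average log2 CPM, or in a fixed set of isoforms and core subunits; of other lists, the 3 called genes of lowest p and fixed regulators. Members, lists and rules were chosen with earlier results of these data known. The ribosomal lists were trimmed of non-ribosomal names after seeing the data. The result of 1 called member is not reported here.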

Additional observations from a re-analysis of the deposited data

Results flagged for a closer look

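In 120 groups of 6 libraries (20 measures in 6 groups), 25 had a highest or lowest library whose gap to the nearest of the other 5 exceeded Dixon's 95% critical value. Chance gives about 5% for independent measures. These measures share libraries, include called members and hold the mt- sum beside its own genes, and many flags are of 1 library. The 25 of 120 therefore cannot be read against 5%. Values are CPM. Female media 24 h replicate 1 was the highest of its group for mt-Nd1 (5145), mt-Nd2 (2981), mt-Co1 (19469), mt-Nd4 (2540), mt-Nd5 (7253), mt-Nd6 (51.7), mt-Cytb (6082) and the summed mt- genes (43528). It was the lowest of its group for Ndufc2 (29.3) and the summed nuclear genes (4733).

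Cox6a2 was highest in female replicate 3 at 6 h in media (3.40), uninjured BALF (3.10) and injured BALF (3.33). At 24 h it was highest in female media replicate 3 (7.52) and female uninjured BALF replicate 1 (2.37). Ndufa6 was highest in female uninjured BALF 24 h replicate 1 (49.8) and in female injured BALF 24 h replicate 3 (55.0). mt-Cytb was highest in female uninjured BALF 24 h replicate 1 (3408) and mt-Nd4 in female injured BALF 24 h replicate 1 (1002). In media at 6 h, male replicate 3 was highest for Ndufv3 (50.3) and Sdha (213.1), and female replicate 3 for mt-Nd1 (2076) and mt-Nd2 (1215). Ndufv3 was highest in male uninjured BALF 6 h replicate 2 (42.5), and Atp5s in male uninjured BALF 24 h replicate 1 (6.23). Of the libraries in which values recur, the 3 high in Ndufa4l2 and the media library with the low nuclear sum are described above; the 2 media libraries numbered 3 at 6 h are not. The cause was not tested.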

How the results depend on the processing

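Counts and medians were recomputed under other settings, some of which leave out 3 or 4 libraries. Leaving out single libraries or all of a number is given apart. A count was the same if equal or within 1.5-fold. A median was the same if it shifted by less than the SD between library means, 0.144 for nuclear and 0.314 for mt- genes. That margin exceeds every nuclear median, and an mt- median could change sign within it. Of 440 values 425 stayed the same and 15 moved. No call of a named member changed sign. Counts of called nuclear genes that moved were as follows. With time in uninjured BALF the count was 6 by DESeq2, 6 with library totals alone and 5 with the replicate block. With time in media it was 1 with library totals alone, 1 with the replicate block, 1 with only the compared groups fitted and 2 without the 3 libraries highest in Ndufa4l2. In injured BALF against media at 24 h it was 2 with no expression filter, 2 with libraries 1 and 2 summed and 2 with only the compared groups fitted. In uninjured BALF against media at 6 h it was 1 with libraries 1 and 2 summed, and for the change of that effect between times 1 by DESeq2. mt- genes called numbered 1 with time in uninjured BALF with library totals alone, and in injured BALF against media at 24 h 3 without the 4 libraries of differing description number and 1 without the 3 libraries highest in Ndufa4l2.

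Leaving out single libraries or all of a number gave nuclear counts of 1 to 7 with time in injured BALF, 0 to 4 in media and 1 to 6 in uninjured BALF. Against media they were 0 to 10 in injured BALF at 24 h, 0 to 3 at 6 h and 0 to 2 in uninjured BALF at 6 h, and for injured against uninjured BALF at 6 h 0 to 1. mt- counts in injured BALF against media at 24 h were 0 to 4. mt- medians were -0.23 to 0.43 with time in media, -0.49 to 0.0823 in injured BALF and -0.50 to 0.15 in uninjured BALF against media at 24 h. The setting without the 3 libraries was chosen after seeing the data, as were robust estimation and the values of Sdha, Ndufv3 and the 3 libraries without female media 24 h replicate 1.

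The labels do not say that a replicate number marks a shared source, and the numbers were not taken as pairs in the main fit. Of 198 same-numbered pairs 109 correlated in their deviations at over 0.1 (-0.47 to 0.62). These pairs join female with male libraries as well as libraries of 1 sex, so the count cannot decide on pairing within a sex. A fit with the replicate block is among the settings above. The data hint at a shared structure: the median was 0.13 for same-numbered and -0.06 for differently numbered pairs, and 31 of 36 libraries correlated best with their own number. Deviations within a group balance out, so a positive value for same-numbered pairs brings a negative one for the rest. Both medians are then not separate evidence. Counting noise limits mt-Co2, mt-Co3, mt-Atp6, mt-Nd3, mt-Nd4l and mt-Atp8, at means of 13.7, 14.7, 5.5, 2.1, 1.4 and 0.5 counts a library.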
